A study of Mus musculus with 11 samples.

Results

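The regions described here are 5009 CpG-dense, unmethylated tiles of 500 bp of the mouse genome, read by reduced representation bisulfite sequencing (RRBS) in 11 libraries of ER-Hoxa9-Lys-GFP cells. RRBS sequences the CpG-rich part of the genome after bisulfite has converted unmethylated cytosines, so that each read is scored as methylated or unmethylated at each CpG it covers. A tile of chromosomes 1 to 19 was taken when it held 25 or more CpG positions listed in any library, when every library had 30 or more observations in it, and when less than 10% of all its observations were methylated. An observation is 1 read at 1 CpG, and the methylation level was pooled over all 11 libraries for this choice. Dense tiles at chr17:39979900-39985800 were left out by position, which removed 5 tiles. The dense unmethylated tiles were 5009 of 7588 dense covered tiles (66.01%), and the table of covered tiles of any density on chromosomes 1 to 19 and X held 50179. Because these tiles were chosen by their pooled level, coverage and CpG count, these are given as a description with no test.

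All libraries came from cultured cells of the C57BL/6 strain labelled ER-Hoxa9-Lys-GFP. They were grown in RPMI medium with serum, stem cell factor conditioned medium and antibiotics. As background, ER-Hoxa9 fuses the homeobox protein Hoxa9 with the estrogen receptor's ligand-binding domain, so that estradiol (E2) keeps Hoxa9 active and holds myeloid progenitors immature. Lys-GFP is a reporter of lysozyme, a gene of maturing myeloid cells. E2 was withdrawn by washing the cells in PBS and changing to medium without E2. The E2 group (1 library) stayed in E2. In 4 groups of 2 libraries E2 was absent for 24, 40, 56 or 72 h and then added back for 96, 80, 64 or 48 h, and the 120 h group (2 libraries) stayed without E2. Time without E2 and time after its return change together across the returned groups and cannot be told apart. Whether the libraries of a group came from separate cultures, and whether the line is 1 clone, is not stated in the labels, so the p-values below measure only the spread between these libraries. DNA methylation of bulk cells holds no expression, so the labelled cell type was not checked against markers, and a change in every cell cannot be told apart from a change in the mixture of cells.

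Depth ranged from 8234933 to 46899896 observations per library. The dense unmethylated tiles took 12.63% of all observations, and the median tile had 210 to 1144 observations in a library. Replicate pairs were compared only at the 269 to 1099 dense unmethylated tiles of a group with 5 or more expected methylated reads. The chi-square per tile was 2.06 to 2.91 there, where independent observations would give 1. CpGs of the same read are counted as separate observations and are not independent. The part of this in the excess was not tested.

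As background, most CpGs of mammalian genomes are methylated, and methylated cytosine is lost over evolution by deamination. CpG islands are the exception: they are short stretches that keep a high CpG density, lie at most promoters of housekeeping genes and many promoters of developmental genes, and are usually unmethylated whether or not the gene is transcribed. Proteins with a CXXC domain bind unmethylated CpG and bring histone H3 lysine 4 methylation, which the de novo DNA methyltransferases avoid. Methylation of an island promoter is linked to stable silencing, and cultured cell lines often gain it.

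The sequence of such a tile shows the density that the choice requires. A promoter from RefSeq (build GRCm38.p6; 250 bases before and 50 after the start of the gene) was placed on the listed mm9 CpG positions by the spacing of its CpGs alone, and no coordinate was converted. Of 31396 promoters, 4962 had exactly 1 place, and 4943 of 4944 neighbouring placed promoters kept the same order in both builds. In this way 2028 of the 5009 tiles (40.49%) were paired with 2127 genes. The promoters printed below were chosen after their values were seen and run 5′ to 3′ on the gene's own strand, with every CpG listed in the deposited tables in capitals. The first 5 lie in dense unmethylated tiles, and Nkx6-1 is a dense promoter that the level left out. Foxk2 (chr11:121121051-121121350, mm9, plus strand), encoding a forkhead transcription factor, has 59 CpGs, of which 51 were listed and 0.139% of observations were methylated. Mrpl48 (chr7:107756766-107757065, minus strand), encoding a mitochondrial ribosomal protein, has 24 CpGs, of which 19 were listed, and a level of 0.963%. Tfdp1 (chr8:13338554-13338853, plus strand), encoding the dimerisation partner of E2F factors, has 55 CpGs, of which 35 were listed, and a level of 0.362%. Runx1 (chr16:92697525-92697824, minus strand), encoding a regulator of blood cell identity, has 35 CpGs, of which 23 were listed, and a level of 0.215%. Cdkn2a (chr4:88940474-88940773, minus strand), a cell cycle inhibitor locus, has 45 CpGs, of which 21 were listed, and a level of 0.507%. Nkx6-1 (chr5:102093681-102093980, minus strand), encoding a homeodomain factor of pancreas and neural tube, has 40 CpGs, of which 39 were listed, and a level of 97.6%.
Foxk2: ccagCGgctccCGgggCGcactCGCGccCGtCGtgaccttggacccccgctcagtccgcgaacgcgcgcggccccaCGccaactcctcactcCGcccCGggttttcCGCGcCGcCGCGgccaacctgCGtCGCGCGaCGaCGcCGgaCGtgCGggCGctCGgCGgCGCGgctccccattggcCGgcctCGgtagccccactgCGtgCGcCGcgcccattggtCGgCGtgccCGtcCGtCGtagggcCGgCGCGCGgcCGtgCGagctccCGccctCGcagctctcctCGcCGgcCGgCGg
Mrpl48: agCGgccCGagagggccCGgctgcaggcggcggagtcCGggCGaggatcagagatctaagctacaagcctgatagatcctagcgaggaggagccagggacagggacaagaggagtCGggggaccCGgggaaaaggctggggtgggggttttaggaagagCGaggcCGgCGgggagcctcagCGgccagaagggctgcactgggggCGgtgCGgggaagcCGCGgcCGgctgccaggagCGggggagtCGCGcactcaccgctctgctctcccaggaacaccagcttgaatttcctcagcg
Tfdp1: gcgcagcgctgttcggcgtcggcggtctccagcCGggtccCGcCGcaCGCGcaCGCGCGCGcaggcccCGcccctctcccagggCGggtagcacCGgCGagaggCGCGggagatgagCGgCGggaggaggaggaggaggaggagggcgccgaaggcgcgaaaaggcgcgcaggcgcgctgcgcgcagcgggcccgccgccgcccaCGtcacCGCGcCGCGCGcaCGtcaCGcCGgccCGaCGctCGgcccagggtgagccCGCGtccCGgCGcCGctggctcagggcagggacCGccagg
Runx1: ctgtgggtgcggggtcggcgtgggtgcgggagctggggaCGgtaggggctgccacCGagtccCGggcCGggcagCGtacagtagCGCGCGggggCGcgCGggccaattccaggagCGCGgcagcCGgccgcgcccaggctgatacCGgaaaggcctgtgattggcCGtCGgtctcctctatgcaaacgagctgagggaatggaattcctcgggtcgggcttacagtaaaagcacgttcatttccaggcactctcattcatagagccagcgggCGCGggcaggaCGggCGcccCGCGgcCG
Cdkn2a: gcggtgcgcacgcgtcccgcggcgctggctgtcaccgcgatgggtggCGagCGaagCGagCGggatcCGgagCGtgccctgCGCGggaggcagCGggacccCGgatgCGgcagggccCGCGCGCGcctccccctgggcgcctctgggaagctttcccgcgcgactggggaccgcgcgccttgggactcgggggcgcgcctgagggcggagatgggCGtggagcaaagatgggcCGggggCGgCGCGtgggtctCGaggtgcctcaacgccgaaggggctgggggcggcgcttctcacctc
Nkx6-1: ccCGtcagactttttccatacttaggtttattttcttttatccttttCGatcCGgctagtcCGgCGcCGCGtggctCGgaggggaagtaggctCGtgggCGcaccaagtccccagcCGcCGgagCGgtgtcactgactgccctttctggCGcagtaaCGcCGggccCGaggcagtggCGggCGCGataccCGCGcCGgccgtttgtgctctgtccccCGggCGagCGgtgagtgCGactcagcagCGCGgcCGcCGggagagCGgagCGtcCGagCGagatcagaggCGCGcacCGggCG

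The dense unmethylated tiles sat close to 0 rather than close to the limit of 10%. The median pooled level was 0.352%, the quartiles were 0.239% and 0.587%, and 2 tiles had no methylated read. Of the 5009 tiles, 3458 (69.04%) were under 0.5%, 895 were from 0.5% to under 1%, 311 from 1% to under 2%, 213 from 2% to under 5%, and 132 from 5% to under 10%. Levels across all dense covered tiles fell into 2 heaps, with 2005 tiles at 80% or more (median 96.7%) and 569 tiles between 10% and 80% (median 37.4%). The 3 tiles just inside the limit were at the promoters of Ica1l (9.98%), Atxn7l1 with F730043M19Rik (9.87%) and Nuak1 (9.79%). The 3 dense tiles just outside it were chr2:25838501-25839000 (10.02%), chr1:39424501-39425000 (10.07%) and the tile at the promoters of Cep170b and Gm46382 (10.11%).

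**Figure D1:**
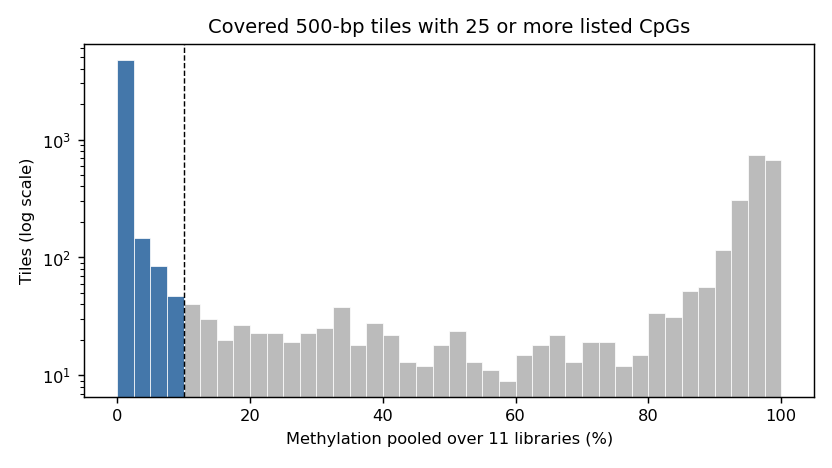
Number of dense covered tiles (log scale) by methylation pooled over the 11 libraries (percent, bins of 2.5 points), with the dense unmethylated tiles in blue and the 10% limit dashed. The lowest bin holds 4731 tiles, and the fewest tiles, 9, fall in a bin of the middle range.

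The share of covered tiles under 10% rose with the number of listed CpGs. It was 13.6% of 4792 tiles with 1 to 4 CpGs, 51.1% of 3864 tiles with 20 to 24 CpGs, 61.4% of 2515 tiles with 25 to 29 CpGs and 75.2% of 668 tiles with 50 or more. Among the tiles under 10%, the median level fell from 0.797% at 1 to 4 CpGs to 0.363% at 25 to 29 CpGs, and it was 0.347% at 50 or more. The dense unmethylated tiles held 25 to 79 listed CpGs (median 34) and 179909 in all. The densest was chr18:84254501-84255000 with 79 CpGs, followed by the tile at Akt1 and Gm30150 (74 CpGs) and the tile at Foxk2 (73 CpGs). Akt1 encodes a growth factor signalling kinase. At the Foxk2 tile the level was 0% in E2, 0% and 0.233% at 24 h, 0.877% and 0% at 40 h, 0.243% and 0% at 56 h, 0.107% and 0.107% at 72 h, and 0.0488% and 0.337% at 120 h. No group stood apart there, and the 11 libraries had 366 to 2051 observations.

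Most dense unmethylated tiles stood alone. They formed 3911 runs of adjacent tiles, of which 2974 were 1 tile long, 801 were 2 tiles long, 116 were 3 tiles long, and 16, 3 and 1 were 4, 5 and 6 tiles long. The longest, chr13:108678501-108681500, covered 6 tiles with 224 listed CpGs, and its tiles had pooled levels of 0.242% to 2.93%. Chromosome 11 held the most dense unmethylated tiles (409) and chromosome 18 the fewest (160).

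The mean level over the dense unmethylated tiles lay between 0.671% and 0.778% in every library. It was 0.691% in E2, 0.735% and 0.678% at 24 h, 0.671% and 0.701% at 40 h, 0.734% and 0.696% at 56 h, 0.778% and 0.716% at 72 h, and 0.763% and 0.717% at 120 h. The E2 library lay inside the range of the others. Both 40 h libraries were below both 72 h and both 120 h libraries, and the 24 h and 56 h libraries overlapped all of these groups. Group means were 0.706% ± 0.040 (SD, n = 2) at 24 h, 0.686% ± 0.022 (SD, n = 2) at 40 h, 0.715% ± 0.027 (SD, n = 2) at 56 h, 0.747% ± 0.044 (SD, n = 2) at 72 h and 0.740% ± 0.033 (SD, n = 2) at 120 h. The 120 h mean was 0.033 percentage points above the 24 h mean, a gap within the SD of the 24 h replicates, and 0.049 points above the single E2 library. Pooling all reads of these tiles gave 0.663% to 0.749%. The 95% Wilson intervals ran from 0.648% to 0.756% and cover only the counting error of independent observations. The 120 h libraries were then the highest (0.749% and 0.734%), just above replicate 1 at 24 h (0.731%). Pooled, the step from 24 h to 72 h was 0.0058 points in place of 0.041 as a mean over tiles, and 120 h against 72 h turned from -0.0071 to 0.025 points.

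**Figure D2:**
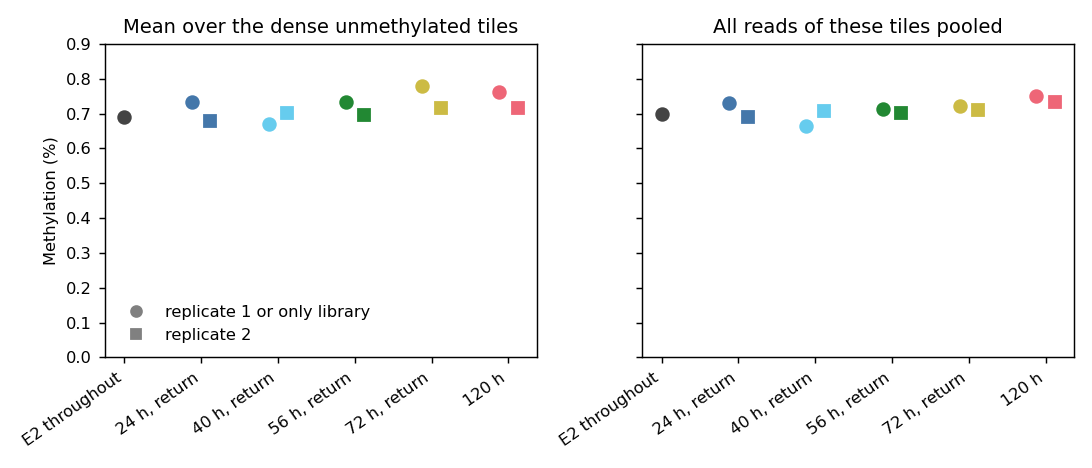
Methylation (percent) of the dense unmethylated tiles in each library, as the mean over tiles (left) and with all reads pooled (right), by group, with replicate 1 as a circle and replicate 2 as a square. All means over tiles lie between 0.671% and 0.778%, where the 24 h and 56 h libraries overlap those at 40, 72 and 120 h.

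Shares of tiles at exactly 0 followed depth. They ran from 5.11% of the dense unmethylated tiles in replicate 1 at 120 h to 50.3% in replicate 1 at 40 h. With every tile thinned to 30 observations, the share was 82.8% to 85.6% across the 11 libraries. In a single library 4 to 26 of the 5009 tiles reached 10% and none reached 20%. Replicate 1 at 72 h had the highest mean over these tiles (0.778%) and also the lowest mean over the 2005 dense tiles at 80% or more (94.8%, against 95.2% to 95.7% in the other libraries).

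Differences between groups at single tiles were tested with a quasi-binomial model of methylated against unmethylated reads, fitted to 50105 tiles at once, of which 5007 were dense unmethylated tiles. The comparisons of groups came from a fit of all 11 libraries, and the slope with hours from a fit of the 8 returned libraries. The model asked whether any tile gained or lost methylation between 24 h of withdrawal and 120 h, between E2 and 120 h, between 24 h and 72 h, between 72 h and 120 h, or in proportion to hours over the 8 returned libraries. At a Benjamini-Hochberg adjusted p under 0.05, 0 dense unmethylated tiles passed in each of the 5 comparisons. The background was as low: 0.02% of all tiles passed for 120 h against 24 h, 0% for 120 h against E2, 0.00798% for 72 h against 24 h, 0% for 120 h against 72 h and 0.00399% for the slope. All tiles that passed had fewer than 25 CpGs, so no dense tile of any level passed. The dense unmethylated tiles were chosen by a level pooled over these same libraries. A dense tile with a large gain could therefore lie outside them. The smallest adjusted p of a dense unmethylated tile was 0.565, 0.514, 0.292, 0.726 and 0.628 in these 5 comparisons. With limma on the arcsine scale 0 dense unmethylated tiles and 0% of all tiles passed in any comparison, and 17, 59, 30, 13 and 29 dense unmethylated tiles had an unadjusted p under 0.05. These were 0.34%, 1.18%, 0.599%, 0.26% and 0.579% of the dense unmethylated tiles. The shares of all tiles by limma were higher, at 1.68%, 6.35%, 2.32%, 1.23% and 1.8%. At the dense unmethylated tiles a limma p under 0.05 was thus rarer than the threshold alone would give. Limma was strict there, so its 0 calls carry little weight.

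Without adjustment, the quasi-binomial model put the dense unmethylated tiles near its own background. For 120 h against 24 h, 372 of 5007 tiles (7.43%) had a quasi-binomial p under 0.05 against 6.93% of all tiles, with 262 higher and 110 lower at 120 h. The comparison of 120 h with E2 gave 196 (3.92% against 5.18%), with 84 higher and 112 lower. For 72 h against 24 h there were 422 (8.43% against 6.95%), with 277 higher and 145 lower at 72 h. From 72 h to 120 h there were 360 (7.19% against 6.29%), with 188 higher and 172 lower. The slope gave 336 (6.71% against 5.75%), with 225 rising with hours and 111 falling. The 24 h group is shared by 2 of these comparisons, the 72 h group by 2 and the 120 h group by 3, and the slope uses the 24 h and 72 h libraries again, so they are not independent.

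Intervals of the difference stayed close to 0 at most dense unmethylated tiles. The tiles were chosen by a level under 10% pooled over these same libraries. A tile that moved far could have left the set, so small differences follow in part from the choice. The fitted dispersion had a median of 1.12 over these tiles. For each tile a 95% interval of the difference was taken from the group counts divided by the fitted dispersion (Newcombe's method). For 120 h against 24 h the interval stayed within 2 percentage points of 0 at 4658 of 5007 tiles (93%) and within 10 points at all 5007. For 72 h against 24 h it stayed within 2 points at 91.4% of tiles, and for 120 h against 72 h at 92.2%. Against the single E2 library the bound was wider: 59.6% of tiles stayed within 2 points and 94.7% within 5 points. The median absolute difference between 120 h and 24 h was 0.193 points at dense unmethylated tiles, and 3 of them differed by over 5 points. At the 569 dense tiles between 10% and 80% the same median was 2.98 points and 26.2% differed by over 5 points, and 0 of these passed the adjusted threshold, with 101 (17.8%) at an unadjusted p under 0.05. The 2 classes of tile were set by level, and counting noise and the room to differ are larger at middle levels. The contrast between them therefore follows in part from how they were set, and it was not tested.

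The tiles with the smallest p in each comparison are given as values, since none passed. For 120 h against 24 h the highest rank among tiles that were higher belonged to the Mrpl48 tile, chr7:107756501-107757000. Its level was 1.34% in E2, 0% and 0.0773% at 24 h, 0.388% and 0% at 40 h, 0% and 1.04% at 56 h, 1.05% and 0.580% at 72 h, and 1.09% and 1.13% at 120 h. Both 24 h libraries lay below both 120 h libraries, and the E2 library was higher than all others. The mean was 1.11% ± 0.027 (SD, n = 2) at 120 h and 0.039% ± 0.055 (SD, n = 2) at 24 h, and the interval of the pooled difference was 0.549 to 1.68 points. The adjusted p was 0.565 in the quasi-binomial model.

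The Zfp787 tile (chr7:6107501-6108000), at a zinc finger gene, was the other tile higher at 120 h. Its level was 1.78% in E2, 0.917% and 0.236% at 24 h, 2.38% and 1.15% at 40 h, 3.39% and 4.10% at 56 h, 2.83% and 1.36% at 72 h, and 3.24% and 1.34% at 120 h. The 24 h libraries were the lowest of all 11, and the 56 h libraries the highest. The adjusted p of 120 h against 24 h was 0.565 in the quasi-binomial model.

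No gene was matched to the 2 tiles with the smallest p on the lower side of this comparison. At chr5:115798501-115799000 the level was 10.5% in E2, 6.52% and 5.22% at 24 h, 3.59% and 8.33% at 40 h, 6.13% and 5.24% at 56 h, 2.96% and 3.68% at 72 h, and 1.85% and 3.38% at 120 h. It was also a tile with the smallest p for 120 h against E2, where the mean of 2.61% ± 1.08 (SD, n = 2) stood against 10.5% in 1 library. The quasi-binomial adjusted p was 0.565 against 24 h and 0.514 against E2. At chr8:73153501-73154000 the mean was 2.28% ± 0.21 (SD, n = 2) at 120 h and 5.82% ± 0.86 (SD, n = 2) at 24 h.

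Against E2, the tiles higher at 120 h were at D5Ertd579e and Ninj1. Ninj1 encodes a membrane protein that ruptures the plasma membrane in lytic cell death. Its tile read 0% in E2, 5.13% and 4.99% at 24 h, 1.33% and 1.14% at 40 h, 1.02% and 3.12% at 56 h, 1.86% and 2.90% at 72 h, and 4.69% and 1.81% at 120 h. The E2 library was the lowest, and the highest libraries were those at 24 h rather than at 120 h. At D5Ertd579e the level was 1.34% in E2, 3.34% and 3.45% at 24 h, 4.04% and 2.11% at 40 h, 5.32% and 3.95% at 56 h, 5.11% and 3.31% at 72 h, and 6.03% and 4.10% at 120 h. The tile shared by the promoters of 1810037I17Rik and 4933405D12Rik read 17.1% in E2, 10.9% and 7.62% at 24 h, 7.50% and 10.4% at 40 h, 15.4% and 14.7% at 56 h, 6.78% and 7.44% at 72 h, and 6.85% and 8.53% at 120 h. The quasi-binomial adjusted p was 0.864 for D5Ertd579e and for Ninj1 and 0.564 for the shared tile.

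For 72 h against 24 h the Tfdp1 tile (chr8:13338501-13339000) was among the 2 higher tiles. It had no methylated read in the libraries at 24, 40 and 56 h, while it read 1.40% in E2, 0.644% and 1.34% at 72 h, and 0.162% and 0.312% at 120 h. The 6 libraries at 0 had 218 to 1065 observations. If observations were independent, a count of 0 would allow up to 1.38% (3 of 218) in the shallowest and 0.282% (3 of 1065) in the deepest. These limits cover counting error only, and CpGs of the same read are not independent, so the true limits can be higher. The same tile had the smallest p of the slope with hours, with a quasi-binomial adjusted p of 0.414 for 72 h against 24 h and 0.628 for the slope. The other higher tile, chr10:61159001-61159500, read 3.63% and 5.17% at 24 h and 9.68% and 11.4% at 72 h, with 7.04% and 4.67% at 120 h. The lower tiles were chr5:116182001-116182500, with 6.28% ± 0.89 (SD, n = 2) at 24 h and 2.59% ± 1.07 (SD, n = 2) at 72 h, and chr14:19103001-19103500, with 3.39% ± 0.23 (SD, n = 2) and 0.749% ± 0.185 (SD, n = 2). For the last 3 tiles the quasi-binomial adjusted p was 0.292, 0.292 and 0.470.

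For 120 h against 72 h the tile at Mrpl57 and Ska3 (chr14:58445001-58445500) was lower. These genes encode a mitochondrial ribosomal protein and a subunit of the complex that holds kinetochores to the spindle. The tile read 7.75% in E2, 7.36% and 5.71% at 24 h, 7.04% and 3.64% at 40 h, 9.0% and 2.10% at 56 h, 6.98% and 8.31% at 72 h, and 3.53% and 2.12% at 120 h. The 120 h libraries were low, but replicate 2 at 56 h was as low, while its partner was the highest of the 11. The other tile on the lower side, chr14:31439001-31439500, read 0% in E2, 0% and 0.197% at 24 h, 0.746% and 0% at 40 h, 0.714% and 1.63% at 56 h, 3.18% and 1.55% at 72 h, and 0% and 0.315% at 120 h. It was also among the higher tiles of the slope with hours. On the higher side, Nampt, encoding an enzyme of NAD salvage, read 0.541% in E2, 0% and 0.196% at 24 h, 0.308% and 0% at 40 h, 1.04% and 0% at 56 h, 0.0635% and 0% at 72 h, and 0.620% and 0.959% at 120 h. The highest Nampt value was in replicate 1 at 56 h, above both 120 h libraries. Ppp1r12c, encoding a subunit of a myosin phosphatase, read 0% in E2, 0.253% and 0.611% at 24 h, 1.38% and 0.455% at 40 h, 0% in both libraries at 56 h, 0.138% and 0.229% at 72 h, and 2.14% and 0.686% at 120 h. The 56 h libraries had 135 and 215 observations at Ppp1r12c, so a count of 0 there allows up to 2.22% and 1.395%. Without replicate 1 at 120 h the Ppp1r12c difference from 72 h fell from 1.23 to 0.503 points, and without replicate 2 it was 1.957 points. The quasi-binomial adjusted p was 0.726 for both lower tiles and 0.791 for Nampt and for Ppp1r12c. Along the slope, the Agap1 tile read 0.633% and 1.01% at 24 h and 0% in the 6 other returned libraries. Those 6 had 167 to 765 observations. A count of 0 allows up to 1.80% in the shallowest, above both 24 h values, and 0.392% in the deepest. The Agap1 slope had a quasi-binomial adjusted p of 0.852. The other lower tile of the slope, chr7:128178001-128178500, read 2.56% and 3.26% at 24 h, 2.5% and 3.26% at 40 h, 0% and 0.529% at 56 h, and 1.09% and 0.602% at 72 h, with the same adjusted p. It read 3.85% in E2 and 1.90% and 2.62% at 120 h.

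**Figure D3:**
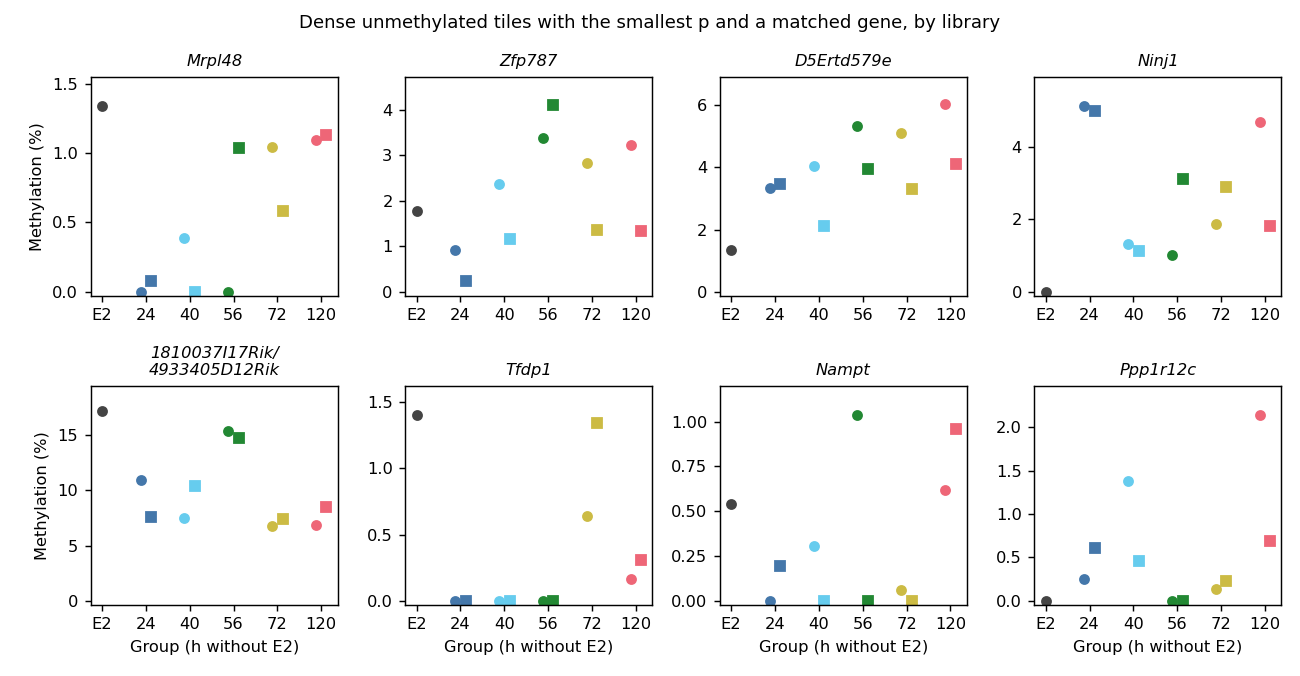
Methylation (percent, a separate linear axis from 0 in each panel) of 8 dense unmethylated tiles with a matched gene and the smallest p of a comparison, by group and library (circle replicate 1 or the only library, square replicate 2). Mrpl48 reads 0% and 0.0773% at 24 h against 1.09% and 1.13% at 120 h, and 1.34% in E2.

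The call depended on which libraries entered the fit. When only the libraries compared were fitted, more tiles were covered, and 9 dense unmethylated tiles passed for 120 h against 24 h (background 0.221% of 128738 tiles), 8 for 72 h against 24 h (0.173% of 125279 tiles), 1 for 120 h against 72 h (0.0371% of 169936 tiles) and 0 for 120 h against E2 (0% of 100697 tiles). The first 3 of these fits had 2 residual degrees of freedom and took nearly all of their spread from the other tiles (prior degrees of freedom infinite, 324.2 and 56.7), and the fit with the E2 library had 1 residual and 5.96 prior degrees of freedom. The tiles named next were singled out after their values were seen. For 120 h against 24 h, 4 tiles were higher, at Gm28913, Zfp787, Mrpl48 and Spire2, and 5 were lower, at Ak4, at Mrpl57 with Ska3, and at chr5:115798501-115799000, chr5:116182001-116182500 and chr17:63848501-63849000. Differences ran from 1.07 points at Mrpl48 to -5.67 points at Ak4, whose 24 h libraries read 12.8% and 5.24%. From 24 h to 72 h the 3 higher tiles were at Zfp787, chr9:55359501-55360000 and chr10:61159001-61159500. The 5 lower tiles were at Ppp1cc, chr3:89883501-89884000, chr5:116182001-116182500, chr9:108551501-108552000 and chr14:19103001-19103500. The Ppp1cc tile, at the gene of a phosphatase catalytic subunit, read 1.56% and 5.16% at 72 h against 11.3% and 6.66% at 24 h. In this fit Zfp787 had an adjusted p of 0.000212 (120 h) and 0.00748 (72 h), and Mrpl48 one of 0.0437 (120 h). A single library moved the difference by over 1.5 times at 3 of the 9 tiles and at 4 of the 8. Without replicate 1 at 120 h the difference from 24 h fell from 1.71 to 0.764 points at Zfp787 and from 3.31 to 0.416 points at Spire2, and without replicate 2 it was 2.66 and 6.19 points. With reads capped at 50 per CpG it was 0.946 points at Zfp787. Summing only CpGs with 10 or more reads in every library, it was 2.59 points at Zfp787, and -6.59 in place of -3.69 points at chr5:116182001-116182500 (72 h against 24 h). Without replicate 1 at 24 h the difference was -1.88 points at Ak4 (120 h), -3.30 points at Ppp1cc (72 h) and -3.30 points at chr9:108551501-108552000 (72 h, against -8.24 with all 4 libraries). Without replicate 2 at 24 h it was -9.47 points at Ak4 and -13.2 points at the chromosome 9 tile. Without replicate 1 at 72 h it was 0.787 in place of 1.52 points at Zfp787, and 0.057 in place of 1.29 points at chr9:55359501-55360000, where it was 2.53 points without replicate 2. No difference changed sign.

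The tiles that varied most are described next. Among 4648 dense unmethylated tiles with 100 or more observations in every library, the median range over libraries was 1.00 point, 177 ranged over 5 points and 20 over 10 points. The widest, chr11:95574001-95574500, read 0% in E2, 3.78% and 8.62% at 24 h, 11.3% and 14.5% at 40 h, 0.568% and 14.5% at 56 h, 3.44% and 3.53% at 72 h, and 4.97% and 5.99% at 120 h. The 56 h replicates lay near its low and its high end. At the promoter of Furin, a proprotein convertase, replicate 1 read 12.9% at 56 h and 0% at 40 h, and the other libraries read 3.45% to 9.43%. At chr10:6979501-6980000 replicate 1 at 56 h was the highest (14.9%) and replicate 2 at 40 h the lowest (2.01%). At chr4:123427001-123427500 replicate 2 at 56 h was the highest (13.9%) and its partner the lowest (2.07%). At Ak4, an adenylate kinase of mitochondria, the E2 library read 0.926% and replicate 1 at 24 h read 12.8%, and both 24 h libraries were above both 120 h libraries.

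Methylation rose with distance outside the dense unmethylated runs. Tiles here needed 10 or more observations in every library. The tile next to a run had a mean level of 5.09% (4695 tiles, 88.8% of them under 10%), with a median of 11 listed CpGs. The mean was 29% from 501 to 1000 bp (1126 tiles), 45.2% from 1001 to 1500 bp (591 tiles), 57.9% from 1501 to 2000 bp (450 tiles) and 72.2% from 4501 to 5000 bp (327 tiles), where the median tile held 4 listed CpGs. CpG density fell along with the rise, and its part in it was not tested. Covered tiles also became rarer with distance, so the far means describe the part of the flank that RRBS reads.

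**Figure D4:**
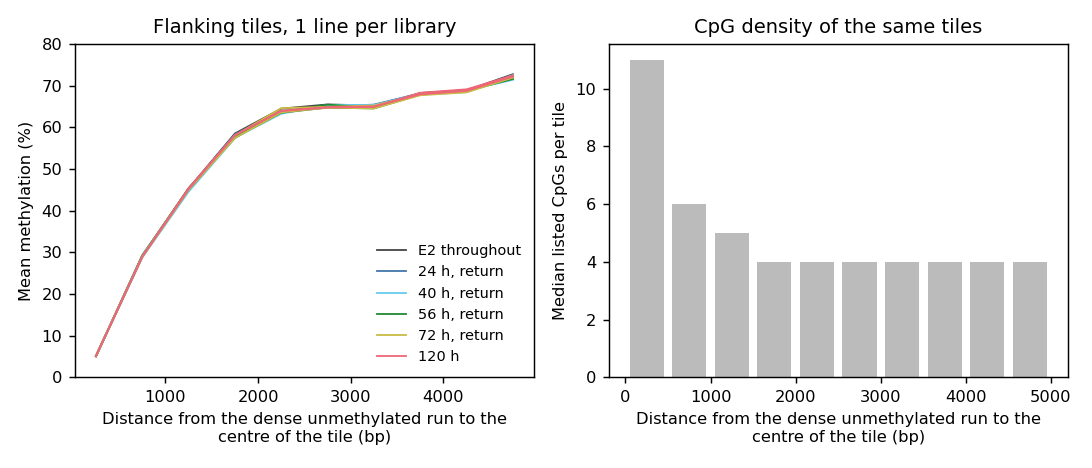
Left, mean methylation (percent) of tiles outside runs of dense unmethylated tiles by distance from the run (bp), with 1 line per library coloured by group. Right, median number of listed CpGs of the same tiles; the 11 lines nearly coincide, from 5.09% next to the run to 72.2% at 4501 to 5000 bp.

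The profile was alike in all 11 libraries. Next to the run the lowest and highest library means were 5.01% and 5.16%, from 1001 to 1500 bp they were 44.6% and 45.4%, and from 4501 to 5000 bp they were 71.4% and 72.7%. Of 3405 tested tiles that touched a run, 0 passed the adjusted threshold in any of the 5 quasi-binomial comparisons, and 283, 164, 254, 236 and 223 had an unadjusted p under 0.05. These were 8.31%, 4.82%, 7.46%, 6.93% and 6.55% of the bordering tiles, against 6.93%, 5.18%, 6.95%, 6.29% and 5.75% of all tiles.

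Within the tiles, most CpGs with enough reads had no methylated read or were under 1%. Of the 179909 listed CpGs, 58552 had 5 or more reads in every library, and 56.0% of these had no methylated read in any library. A further 32.3% were above 0 and under 1%, 9.79% were from 1% to under 5%, 1.42% from 5% to under 20%, and 0.415% from 20% to under 50%. Only 39 of these CpGs were at 50% or more, in 25 tiles whose own levels were 1.93% to 9.66%, and 29 of the 39 (74.4%) lay within 100 bp of the edge of the tile against 36.0% of all 58552. An example is the tile at Fzd9, encoding a Wnt receptor of the Frizzled family (chr5:135726501-135727000). It held 4 of these CpGs, at 85.5%, 80.3%, 85.5% and 58.7%, while the tile as a whole was at 8.55% and the neighbouring tile was at 95.1%. Tile edges are a fixed grid, and this tile spans the border between an unmethylated and a methylated stretch. The neighbouring tile was also above 50% for the tiles starting at chr4:45542501 (72.9%), chr5:125343501 (67.7%) and chr7:134397501 (94.9%). At all other of the 25 tiles with a value for the neighbour, it was lower, from 0.163% (Gng5 with Spata1) to 32.2% (Parg with Timm23). Fzd9 thus does not stand for most of them.

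CpGs inside CCGG differed from other CpGs of the same promoters. CCGG is the site of MspI, the enzyme most often used for RRBS, and the labels do not name the enzyme. In the 2358 promoters placed on dense unmethylated tiles, 7722 listed CpGs in CCGG had a pooled level of 1.03%, and 32312 other listed CpGs had 0.369%. By library the level was 0.915% to 1.14% at CCGG and 0.332% to 0.399% at other CpGs, without overlap in any of the 11 libraries. Among CpGs with 5 or more reads in every library, 25.6% of CCGG sites and 73.3% of other CpGs had no methylated read. The CCGG sites also had more reads, 22.3 per CpG and library against 15.5, and the part of read number in the difference was not tested. No value for bisulfite conversion was used here, so a level near the median of these tiles cannot be told apart from unconverted cytosine.

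Promoter sequences on the dense unmethylated tiles were set beside 698 promoters placed on dense tiles at 10% or more and beside all 31396 promoters. Both dense sets had a median of 35 CpGs in the 300 bases and a GC content of 71.7% and 73.3%, against 7 CpGs and 53.0% over all promoters. Motifs were searched on both strands as exact letters and are a description of these windows. GGGCGG, the GC box of Sp and KLF factors, was in 87.1% of the promoters on dense unmethylated tiles, 86.3% of the other dense promoters and 36.0% of all. CCGGAAG, a core bound by ETS factors that overlaps CCGG, was in 23.5%, 6.45% and 9.0%. The motif of NRF1 (GCGC, AT and GCGC joined) was in 3.22%, 0.716% and 0.968%. CACGTG, an E-box, was in 11.5%, 7.45% and 7.14%, and TGACGTCA, the cyclic AMP response element, in 3.05%, 2.44% and 1.83%. CCAAT was in 27.2%, 22.9% and 37.3%, and TATAAA in 2.42%, 3.15% and 13.6%. These shares were not tested. Of the promoters printed above, Foxk2, Mrpl48, Tfdp1 and Cdkn2a hold GGGCGG, Foxk2 and Runx1 hold CCAAT, and Nkx6-1 holds none of the 7 motifs.

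Named gene groups were read from 8 lists with 186 genes, of which 26 were matched to 31 dense unmethylated tiles with a median pooled level of 0.309%. The median over all dense unmethylated tiles was 0.352%. Among these 31 tiles 0 passed the adjusted threshold in any comparison, with 4, 2, 4, 2 and 2 tiles at an unadjusted p under 0.05 in the 5 quasi-binomial comparisons. In this order these were 12.9%, 6.45%, 12.9%, 6.45% and 6.45% of the 31 tiles, against 6.93%, 5.18%, 6.95%, 6.29% and 5.75% of all tiles. Not every listed gene had a promoter in the RefSeq set used: 14 of 24 myeloid and 31 of 47 developmental transcription factors did. A gene also had no match where its promoter was not placed or lay in a tile outside the choice. The counts are therefore not shares of unmethylated genes.

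Of 18 enzymes and readers of DNA methylation, 3 were matched: the de novo methyltransferases Dnmt3a and Dnmt3b and the 5-methylcytosine oxidase Tet2. The lowest and highest tiles were those of Dnmt3a, at 0.120% and 0.549%, with Dnmt3b at 0.271% and Tet2 at 0.360% and 0.481%. Of 16 CXXC and histone H3 lysine 4 factors, 5 were matched: Kdm2b, which binds unmethylated CpG, and the methyltransferases Kmt2a, Kmt2c, Kmt2d and Setd1a. Their tiles ran from 0.147% at Kmt2d and 0.239% at Kmt2c to 0.695% and 0.337% at Kmt2a. Of 19 Polycomb subunits and partners, 6 were matched, with 0.122% and 0.491% at Bmi1, 0.156% at Bap1 and 0.301% at Ring1 as the ends, and Suz12, Jarid2 and Phc2 between them.

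Of 24 myeloid transcription factors, 4 were matched: Cebpb (0.190%), Gata2 (0.251%), Runx1 (0.309%) and Myb (0.588%). These genes control the choice between progenitor growth and maturation that E2 withdrawal addresses in this line. The Runx1 tile read 0.552% in E2, 0.687% and 0.114% at 24 h, 1.34% and 0.641% at 40 h, 0% and 0% at 56 h, 0.342% and 0.535% at 72 h, and 0.131% and 0.173% at 120 h. Myb read 0% in E2, 0% and 0.253% at 24 h, and 1.01% and 1.11% at 40 h. It read 0% and 2.13% at 56 h, 1.14% and 0% at 72 h, and 0.258% and 1.34% at 120 h. Cebpb is a factor of late granulocyte and macrophage genes. Its tile read 0% in E2, 0% and 0.154% at 24 h, and 0% and 0% at 40 h. It read 0.352% and 0.885% at 56 h, 0.286% and 0.148% at 72 h, and 0.330% and 0% at 120 h. The shallowest library had 76 observations at Gata2, 89 at Myb, 118 at Runx1 and 200 at Cebpb, so single values of these tiles are coarse. The 56 h libraries of Runx1, both at 0%, were the lowest, and the highest value of any library in the 4 tiles was 2.63% (Gata2).

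Of 20 cell cycle regulators, 6 were matched: the cyclin gene Ccne1, the activator E2f3, the inhibitors Cdkn1b, Cdkn2a and Cdkn2c, and Mdm2, which degrades p53. The highest were Cdkn1b (0.517%) and Ccne1 (0.453%) and the lowest Mdm2 (0.198%) and Cdkn2c (0.359%). Cdkn2a, which is often methylated in tumours, was at 0.364% and between 0% and 0.587% in every library. Cdkn1b, singled out after its values were seen, read 0% in E2, 0% and 0% at 24 h, 0.719% and 0.873% at 40 h, 0% and 0% at 56 h, 0.781% and 0.285% at 72 h, and 1.21% and 0.845% at 120 h. The quasi-binomial adjusted p of 120 h against 24 h was 0.698 for Cdkn1b. Of 16 progenitor genes linked to Hoxa9, Lmo4 was matched (0.210%), and of 26 housekeeping genes Rab7, at 0.368% and 1.46% in adjacent tiles. The housekeeping promoters that were placed outside these tiles (Eef2, Polr2a, Snrpd3, Gpi1 and Tuba1b) lay in tiles of fewer than 25 CpGs and had 0.137% to 2.72% methylation.

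Of 47 developmental transcription factors of other lineages, 31 had a promoter in the RefSeq set used. Of these, 7 promoters were placed, and 0 were matched to a dense unmethylated tile. Nkx6-1 (97.6%), Six2 (97.6%), Dlx2 (96.4%), Isl1 (95.9%) and Pax6 (94.8%) were methylated nearly throughout, and Lhx2 (32.0%) and Pax2 (16.3%) in part. These genes direct the eye, kidney, forebrain, heart and pancreas, and their promoters are classic CpG islands. The Nkx6-1 tile had 53 listed CpGs and was at 97.3%, so it met the density of the choice and not its level. Outside this group, Tet3 (39.6%) and Cxxc4 (95.9%) were the promoters of their lists that were placed and above 10%. Whether the developmental list differed from other lists was not tested.

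**Figure D5:**
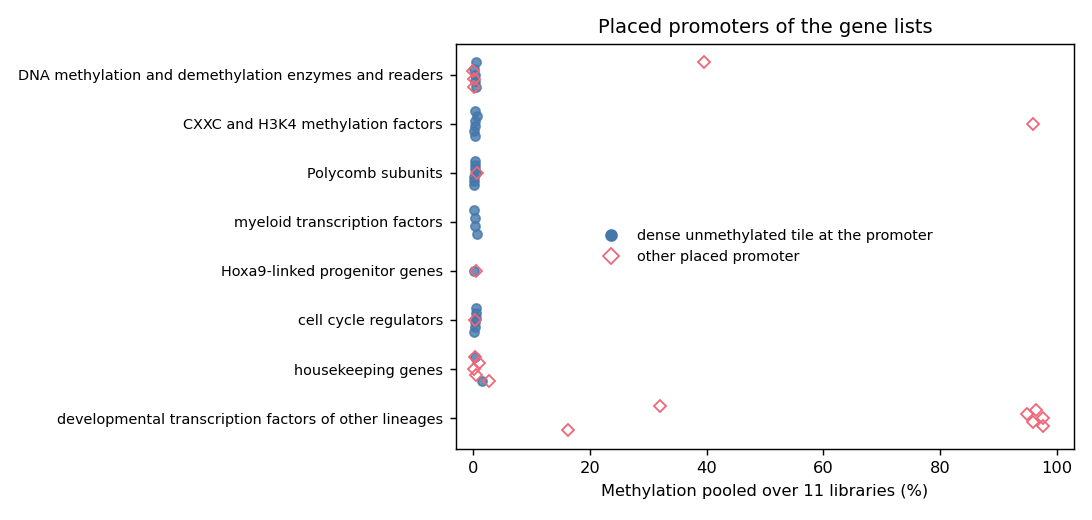
Pooled methylation (percent, x axis) of promoters of 8 gene lists (y axis), as filled circles for dense unmethylated tiles at the promoter and open diamonds for other placed promoters. The filled circles lie between 0.120% and 1.46%, and 5 developmental promoters lie between 94.8% and 97.6%.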

How the data were processed

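Genomic DNA of 11 libraries was converted with bisulfite, ligated to adapters and amplified, per the labels' protocols, which also name transposed nuclei, a step of another assay. Each deposited table lists CpGs with the counts of methylated and all reads (in a single text column) and a score of 0 to 1000. The score equalled 1000 times the methylated share in every line of the 11 tables and was not used. The genome build was mm9, per the submitters' processing notes. Aligner, caller, strand handling and duplicate treatment are not given in the sources used here. Reads carry no molecular identifier, and CpGs of the same read are counted as separate observations. Intervals therefore cover counting error only, and those without the dispersion take observations as independent and can be too narrow.

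Counts were summed over 500-bp tiles (1-based). Tiles of chromosomes 1 to 19 and X with 30 or more observations in every library and both kinds of read were tested by a two-sided deviance F test of a quasi-binomial logistic model with 1 mean per group. The dispersion was moderated across tiles as in limma (3.58.1) and not allowed below 1, and p-values were adjusted by Benjamini and Hochberg over 50105 tiles (threshold 0.05). The E2 group has 1 library and was assumed to vary like the other groups. Python 3.11.15 and SciPy 1.17.1 were used. The test was checked on simulated gains with a fixed spread between libraries. Those gains were larger than most differences seen here, so the check does not cover differences of that size. A promoter was placed when 12 or more listed CpGs lay in its 300-base window, each was a CpG of its sequence and no other place on the chromosome met this. A tile took the gene when 5 or more of its listed CpGs were in the match. RefSeq promoters on chromosome 18 and on X were not used here.

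The regions, gene lists and tests were chosen with earlier results of these data known. Tiles were named by rule: the 2 higher and 2 lower with the smallest p in each comparison, the 3 with the most CpGs, the longest run, the 3 nearest to the limit on each side and the 5 with the widest range. The descriptions of CCGG, motifs and single CpGs at 50% or more, and the printed promoters, were chosen after values were seen. Alternatives tried were another coverage minimum, deep CpGs only, capped reads, no lower limit on the dispersion, limma, fewer libraries, a replicate block and each library left out.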

Additional observations from a re-analysis of the deposited data

How the results depend on the processing

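The number of dense unmethylated tiles that passed the adjusted threshold stayed at 0 in all 5 comparisons with a minimum of 100 observations, with only CpGs of 10 or more reads, with reads capped at 50 per CpG, with no lower limit on the dispersion, with limma, and with each library of a pair left out in turn (0 to 0). It changed when only the libraries compared were fitted, to 9 (120 h against 24 h), 8 (72 h against 24 h) and 1 (120 h against 72 h), while 120 h against E2 kept 0. That fit has fewer libraries and more tiles. In the comparisons that changed, it also took nearly all of its spread from other tiles. The prior degrees of freedom there were infinite, 324.2 and 56.7, against 10.7 in the fit of all libraries. Which of these makes the difference was not tested. The limma count of 0 carries little weight, because limma was strict at these tiles. Same-numbered libraries did not deviate together at these tiles (correlations of -0.042 to 0.036 over 10 pairs of groups, none over 0.1). Counting noise is large at levels near 0, so this check cannot exclude that the numbers pair the samples. Replicate 1 had the higher mean over the tiles at 24, 56, 72 and 120 h and the lower at 40 h. With the replicate number as a block and without the E2 library, 0 dense unmethylated tiles passed for 120 h against 24 h, 72 h against 24 h, 120 h against 72 h and the slope. No block could be fitted for 120 h against E2, because the labels give the E2 library no replicate number. The mean level from 1001 to 1500 bp outside a run was 37.3% for runs of 2 or more tiles, against 45.2% for all runs. Depth limits single tiles: against the E2 library the farther end of the interval of a tile's difference was 1.76 points from 0 at the median, against 0.745 points for 120 h against 24 h. Leaving out a library moved the mean difference over the tiles between 0.0050 and 0.062 points (120 h against 24 h), 0.026 and 0.072 (120 h against E2), 0.0093 and 0.072 (72 h against 24 h), and -0.038 and 0.024 (120 h against 72 h).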
